A study of Mus musculus with 2 samples.

Results

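The E proteins Tcf3, Tcf4 and Tcf12 and the Id inhibitors Id1, Id2, Id3 and Id4 were examined in P5424, an established mouse T-cell line. They are 7 of the 22220 genes that could be named on the array. Their probes were taken by the gene name that the array files give to each non-control probe. This gave 10 probes of 55681, of which 6 belong to the 3 E-protein genes and 4 to the 4 Id genes. Total RNA of P5424 cells was hybridised to 2 one-colour Agilent mouse arrays, called replicate 1 and replicate 2, with Cy3 as the dye. Per the labels, both samples are untreated, lack Rag2 and P53 (gene symbol Trp53) by knockout. The medium was RPMI1640, to which 2-mercaptoethanol (0.1 mM) and fetal bovine serum (10%) were added. There is 1 group and no second condition, so no group was compared with another and no test was run. Nothing in the labels tells separate cultures from repeat measurements, so the spread given here can be technical.

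E proteins are basic helix-loop-helix transcription factors that bind short DNA motifs called E-boxes as dimers, with themselves, with each other or with tissue-restricted partners. Id proteins have the helix-loop-helix part but no basic, DNA-binding part, so a dimer of an E protein with an Id protein cannot bind DNA. In mouse thymocytes, E proteins hold cells before the checkpoints of receptor signalling and drive recombinase and pre-T-cell receptor genes, and Id3 is the inhibitor induced when the receptor signals.

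The measured oligonucleotides are shown because the values of paralogues and of probes of 1 gene rest on them. Each probe is 60 bases long. The sequences below are from the deposited files, 5′ to 3′, with positions on the mouse build mm9. The Tcf3 probe that starts at base 1898 of transcript NM_001164153 lies at chr10:79875963-79876022 on the minus strand, the Tcf12 probe that starts at base 1848 of NM_011544 at chr9:71692059-71692086 on the minus strand, and the Id3 probe that starts at base 338 of NM_008321 at chr4:135700075-135700249 on the plus strand. These 3 are given whole.
Tcf3, base 1898: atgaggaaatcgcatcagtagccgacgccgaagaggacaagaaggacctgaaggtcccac
Tcf12, base 1848: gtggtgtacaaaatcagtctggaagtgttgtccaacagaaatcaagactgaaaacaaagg
Id3, base 338: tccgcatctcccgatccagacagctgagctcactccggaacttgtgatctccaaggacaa
A further 5 probes are given by their first 30 bases. They lie at chr10:79872639-79872698 (Tcf3, minus strand), chr9:71692310-71692369 (Tcf12, minus strand), chr2:152563083-152563142 (Id1, plus strand), chr12:25778904-25778963 (Id2, minus strand) and chr13:48358668-48358727 (Id4, plus strand).
Tcf3, base 2516: cagaaaagttccttcctctcggttaaccag
Tcf12, base 4396: atttacaatagcattttaagagcatagtag
Id1, base 847: attgttttacaatagttctatgggggtgag
Id2, base 972: tgagtgaaccttgtggactctttaattaga
Id4, base 922: tgctaagtagaagagcaatcgtgaatccaa

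The 60 bases of the Id3 probe span 175 bases of the genome. The position listed for the Tcf12 probe at base 1848 covers 28 bases and lies 251 bases downstream of the position of the probe at base 4396, which is the opposite of their order in the transcript. That probe is therefore called by its transcript base only. The longest run of bases shared by member probes of different genes, on either strand, was 10 bases, between a Tcf12 and the Id1 probe. Against probes of other genes on the array, each member probe shared runs of at most 13 to 16 bases. The accessions of 10 of 10 member probes led to the same gene in a RefSeq gene table. That check matters for Tcf3, because the table also lists this name as an older name of the unrelated factor Tcf7l1. The Tcf3 measured here is the E2A gene.

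Of the 10 member probes, 8 were detected, that is, marked well above background by the scanner software on both arrays, where 40.1% of all probes were. By gene this was 6 of 7 members, against 51.7% of all named genes. All 3 E-protein genes and 3 of the 4 Id genes were detected. The other 2 probes were Id4, found on neither array, and the second Tcf4 probe, found on replicate 2. Each of the 8 detected probes also exceeded the highest of the 308 negative control spots on both arrays. That highest spot gave 15.1 intensity units on replicate 1 and 100.6 on replicate 2. Of the negative control spots, 0 on replicate 1 and 1 on replicate 2 were marked well above background. Below, signals are processed intensity units, and a value is the log2 of the signal less that of the array's 75th percentile, as mean ± SD over both arrays (n = 2). Probes differ in sequence and binding, so a brighter probe does not show more transcript than a dimmer one, whether of a paralogue or of the same gene.

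The count of members was read under other definitions of detection too. With a positive and significant signal on both arrays, 9 of 10 probes were found, against 60.3% of all probes (67.5% of genes). The same 9 were well above background on at least 1 array, against 43.6% (54.3% of genes). The added probe was the second of Tcf4. Above the highest negative control on both arrays there were 8, against 32.4% of all probes and 45.8% of genes. From replicate 2 alone there were 9, against 41.2% of probes and 52.6% of genes, and from replicate 1 alone 8, against 42.5% of probes and 53.4% of genes. In each of these definitions 6 of 7 member genes were found. With every probe of a gene required, 5 were, against 44.6% of genes.

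**Figure D1:**
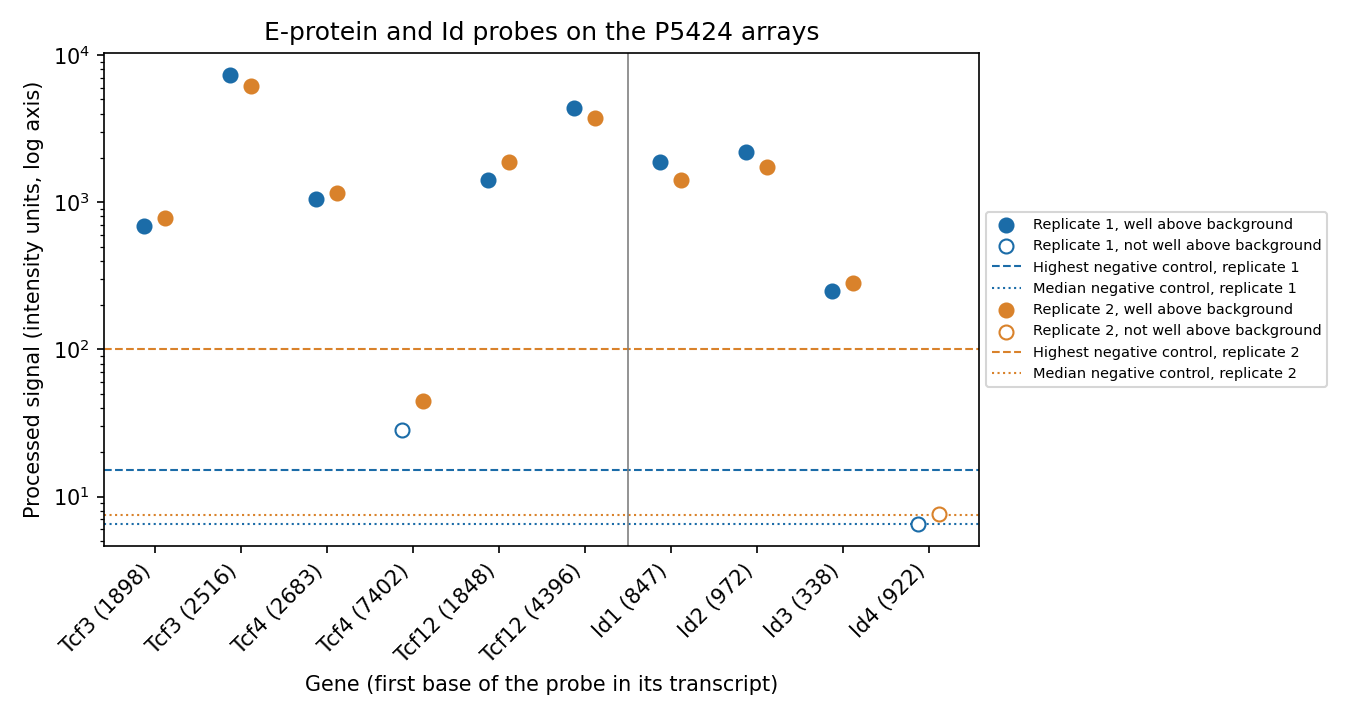
Processed signal of the 10 member probes on each array (log axis), E proteins left of the vertical line and Id genes right of it, with the first base of each probe in its transcript in brackets. Filled points are well above background, open points are not, and lines mark the median and highest negative control spots. The 8 detected probes lie above both dashed lines. Both Id4 points lie at the median negative control, a level that values put in by the software near background can set.

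Tcf3 encodes E12 and E47, splice forms of the E2A protein and the E proteins most tied to early lymphocyte development. Its probe at base 2516 had signals of 7268 on replicate 1 and 6115 on replicate 2, a value of 4.42 ± 0.09. Its probe at base 1898 had 688 and 782 units, a value of 1.24 ± 0.21. Both probes were detected, and their listed starts refer to different transcripts. On the genome they lie 3324 bases apart. The files list up to 4 accessions per probe, and the 4 listed for each Tcf3 probe had none in common.

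Tcf12 encodes HEB, the E protein that partners with E2A products in thymocytes. The probe at base 4396 had signals of 4333 and 3755 units, a value of 3.70 ± 0.06. The probe at base 1848 had 1421 and 1875 units, a value of 2.39 ± 0.37. Both were detected, and the SD of the second was the wider of the pair. The probe pair shared 3 of the 4 accessions listed for each.

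Tcf4 encodes E2-2, the E protein known as the lineage factor of plasmacytoid dendritic cells and also present in lymphocytes. It lies on chromosome 18, and its probes start at bases 2683 and 7402 of NM_013685, at 69842843 to 69842902 and 69847562 to 69847621. The probe at base 2683 had signals of 1058 and 1159 units, a value of 1.83 ± 0.18. The probe at base 7402 had 28.2 units on replicate 1, not well above background, and 44.9 units on replicate 2, well above background but under that array's highest negative control spot. The second probe lies 4719 bases further downstream on both the transcript and the genome. Of the 5405 named genes with 2 probes, 1043 (19.3%) likewise had only 1 of them detected on both arrays, and 2436 (45.1%) had both, as Tcf3 and Tcf12 did.

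Id1, Id2 and Id3 were detected, each by its only probe. Id1, an inhibitor known as a target of bone morphogenetic protein signalling, had signals of 1865 and 1424 units, a value of 2.39 ± 0.19. Id2, the inhibitor required for innate lymphoid and natural killer cells, had 2177 and 1728 units, a value of 2.64 ± 0.15. Both were lower on replicate 2. Id3, the inhibitor induced by pre-T-cell and T-cell receptor signalling, had 249 and 281 units, a value of -0.23 ± 0.20. Its signal was 38.1 times the median negative control on replicate 1 and 37.4 times on replicate 2.

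Id4, the remaining inhibitor, best known from neural and mammary tissue, gave 6.56 units on replicate 1 and 7.65 on replicate 2. The median negative control spot gave 6.55 and 7.50 units, and the Id4 signal was within 1.02 times that level on both arrays. The software's own error was 100.3% of the Id4 signal on each array. Near background the software puts in surrogate values, so this match can be set by the software and is not read as a measured level. The software called its signal neither well above background nor positive and significant on either array. An upper bound for 1 probe is all that this allows, and transcripts lacking its 60 bases would not be seen.

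The differences between the arrays ran both ways. Of the 8 detected member probes, 4 were higher on replicate 2 and 4 were lower, by 1.06-fold to 1.43-fold after scaling, and 49.3% of all detected probes were higher there. Their median absolute difference was 0.26 on the log2 scale, against 0.18 over all 22321 detected probes. The widest was the Tcf12 probe at base 1848, at 0.52, where 89.2% of detected probes differed by less, and the narrowest was the other Tcf12 probe, at -0.09. That order depends on the scaling. With the array median, Id1 was the widest at -0.50, against 0.29 for the Tcf12 probe at base 1848, and the narrowest was Tcf4 at base 2683, at 0.02. The scanner software's own error was 10.0% to 10.3% of each signal, which gives a combined error of 0.20 to 0.21 for a difference. Each member probe has 1 spot, so this error is the software's estimate and not a spread measured over repeat spots. Of the 8 differences, 6 were wider than that combined error, as were 41.4% of those of all detected probes. The exceptions were the Tcf3 probe at base 2516 and the Tcf12 probe at base 4396. This split depends on the scaling too. With the array median, those exceptions were at -0.36 and -0.32, wider than the error. Tcf3 at base 1898 (0.08), Tcf4 at base 2683 (0.02) and Id3 (0.06) then fell below it.

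**Figure D2:**
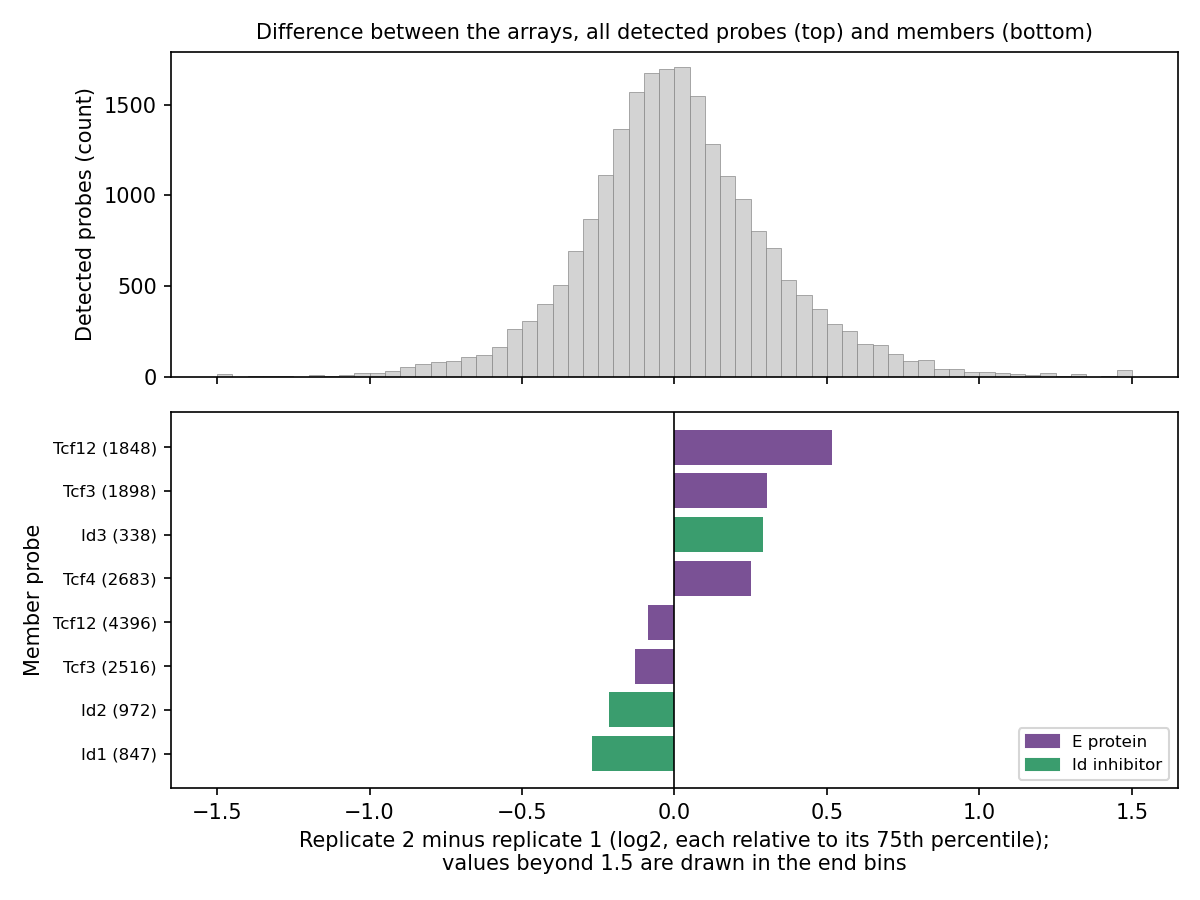
Replicate 2 minus replicate 1 on the log2 scale. The upper panel counts all 22321 detected probes, and the bars below show the 8 detected member probes, E proteins and Id inhibitors in different colours. The members lie between -0.27 (Id1) and 0.52 (Tcf12, base 1848). In absolute size, 89.2% of detected probes differed by less than that Tcf12 probe.

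The probe pairs of Tcf3 and Tcf12 moved in opposite directions between the arrays. For Tcf3 the differences were 0.30 (base 1898) and -0.13 (base 2516), and for Tcf12 they were 0.52 (base 1848) and -0.09 (base 4396). Opposite signs were found in 44.1% of the 2436 genes with 2 probes that were both detected. The gap between the probes was 0.43 for Tcf3 and 0.61 for Tcf12, against a median of 0.23 over those genes. A smaller gap was found in 74.5% of them for Tcf3 and in 87.9% for Tcf12.

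Base composition moved with the difference between the arrays, in bands chosen after the data were seen. Over all detected probes the median difference was -0.24 for the 354 probes with under 35% G and C and 0.12 for the 4690 probes with 50% or more. The members ranged from 28.3% for Id1 to 55.0% for Id3 and for the Tcf3 probe at base 1898. Id1 was at -0.27, Id3 at 0.29 and that Tcf3 probe at 0.30. In 5 of the 8 detected member probes the sign was that of the median of probes with like composition, as in 62.8% of all detected probes, and in 3 it was not (Tcf3 at base 2516, Tcf4 at base 2683 and Tcf12 at base 1848). The part of base composition in the members' differences was not tested.

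The genes around the E-protein and Id system were followed in 5 lists of 60 genes in all, each with a probe on the array. Of these, 29 were detected and 31 were not well above background on either array, against 51.7% of all named genes detected. Where several probes of a gene were detected, the brightest gave the value. Over all 11496 detected genes the median value was 2.14.

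Genes that E proteins are known to activate in developing lymphocytes were detected in 12 of 16 cases, with a median value of 3.93. This list was not the highest of the 5. The median was 4.58 for the turnover genes, 3.79 for the cofactors and 2.00 for the signals upstream of Id genes. The 1 detected tissue-restricted partner was at -2.21. Ptcra encodes the invariant chain of the pre-T-cell receptor and had signals of 16795 and 12165 units (5.52 ± 0.25). Rag1, a subunit of the recombinase of receptor genes, had a value of 4.06 ± 0.14. Rag2, its partner, had 2.76 ± 0.06. The coreceptor Cd4 was at 5.71 ± 0.03. Notch1, Cxcr4, Socs1, Socs3, Foxo1, Cd79a and Vpreb1 were also detected. Cd79a and Vpreb1 lay above the brightest negative control on replicate 1 and below it on replicate 2. Il7r, the interleukin 7 receptor, the cell cycle inhibitor Cdkn1a, the B-cell factor Ebf1 and the surrogate light chain gene Igll1 were not well above background. Of the 12 detected genes, 1 (Rag2) was higher on replicate 2, against 43.8% of all detected genes. Scaled to the array median, 0 were, against 15.6% of all detected genes. Rag2 is labelled as knocked out. Its probe at base 1430, which gave the value above, had 2132 and 2086 units. Its other probe, at base 3152, had 90.2 and 88.5 units. That probe lay above the brightest negative control on replicate 1 and below it on replicate 2. The Trp53 probe gave 746 and 996 units. The labels do not say which part of either gene is deleted, and a probe outside that part checks nothing.

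Tissue-restricted partners of E proteins formed the list with the fewest detected genes, 1 of 18. The exception was Bhlha15, a factor of secretory cells, with signals of 66.3 and 68.1 units (-2.21 ± 0.11). Bhlha15 lay above the brightest negative control on replicate 1 and below it on replicate 2. The leukaemia-associated factors Tal1, Tal2 and Lyl1, the muscle factors Myod1 and Myog, the neural factors Neurod1, Atoh1, Nhlh1 and Nhlh2, and Ascl2, Msc, Twist1, Hand1, Hand2, Tcf15 and Tcf21 were not well above background on either array. With the software's weaker mark of a positive and significant signal on both arrays, 8 of the 18 were found, where 67.5% of all named genes were.

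**Figure D3:**
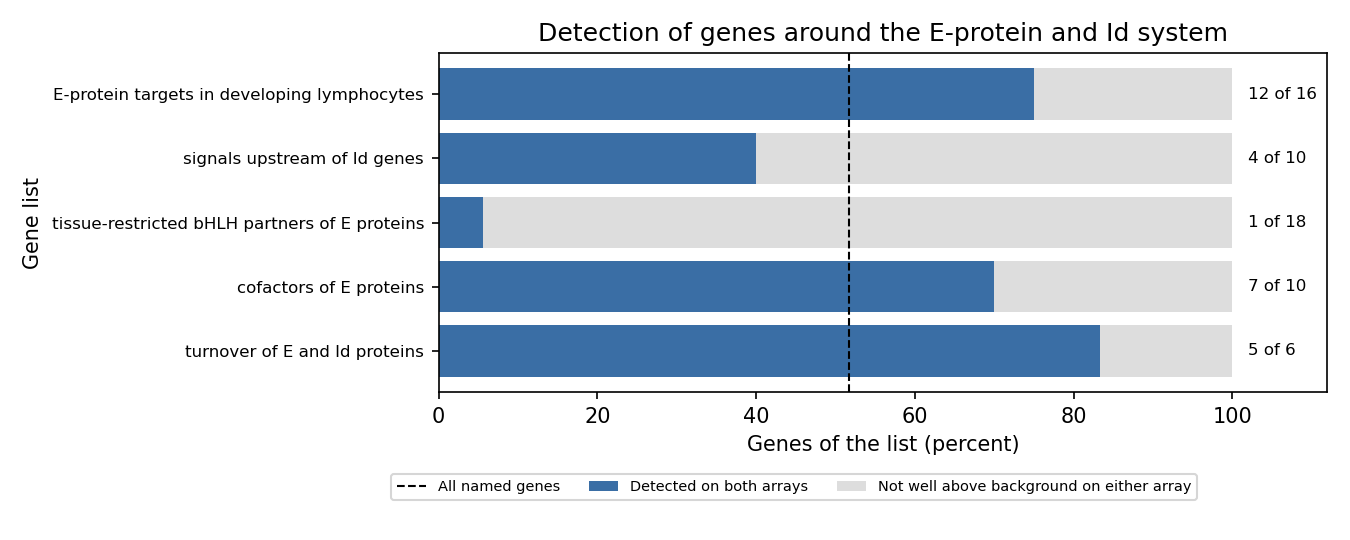
Percent of the genes of each list detected on both arrays, with the counts at the right and the share over all named genes (51.7%) as the dashed line. The bHLH partners (1 of 18) and the signals upstream of Id genes (4 of 10) lie below that line, and the other 3 lists lie above it.

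Signals that are known to induce Id genes were detected in 4 of 10 cases. The immediate early factors Egr1, Egr2 and Egr3, which link T-cell receptor signalling to Id3, were not well above background. Of the bone morphogenetic protein branch, which induces Id1, Id2 and Id3, the receptor Bmpr2 had a value of 0.67 ± 0.35. Of the signal transducers, Smad1 was at -0.93 ± 0.20 and Smad5 at 4.01 ± 0.02, and Smad4, which both share, was at 3.32 ± 0.04. The receptors Bmpr1a and Bmpr1b and the transducer Smad9 were not well above background.

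Cofactors of E proteins were detected in 7 of 10 cases. The acetyltransferases Ep300, Crebbp, Kat2a and Kat2b, which E proteins recruit to activate genes, were all detected. Ep300 was at 0.57 ± 0.11 and its paralogue Crebbp at 4.08 ± 0.24. Kat2a was at 4.69 ± 0.14 and its paralogue Kat2b at -0.97 ± 0.12. Of the ETO family of corepressors, Cbfa2t2 was at 3.79 ± 0.05, Cbfa2t3 was detected by 1 of its 3 probes, and Runx1t1 was not well above background. Ldb1, which bridges complexes of E proteins and LMO proteins, was detected. Its partners Lmo1 and Lmo2, both oncogenes of T-cell leukaemia, were not well above background.

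Genes that act on the stability of E and Id proteins were detected in 5 of 6 cases. Skp2 and Stub1, which take part in the degradation of E2A proteins, were both detected. Skp2 was at 2.87 ± 0.03 and Stub1 at 4.58 ± 0.00. Usp1, which removes ubiquitin from Id proteins, was at 4.18 ± 0.07. Fzr1, an activator of the anaphase-promoting complex, was at 4.75 ± 0.07, and Cops5, a subunit of the COP9 signalosome, was at 6.32 ± 0.02. Asb2, which is induced by Notch and promotes E2A degradation, was not well above background.

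**Figure D4:**
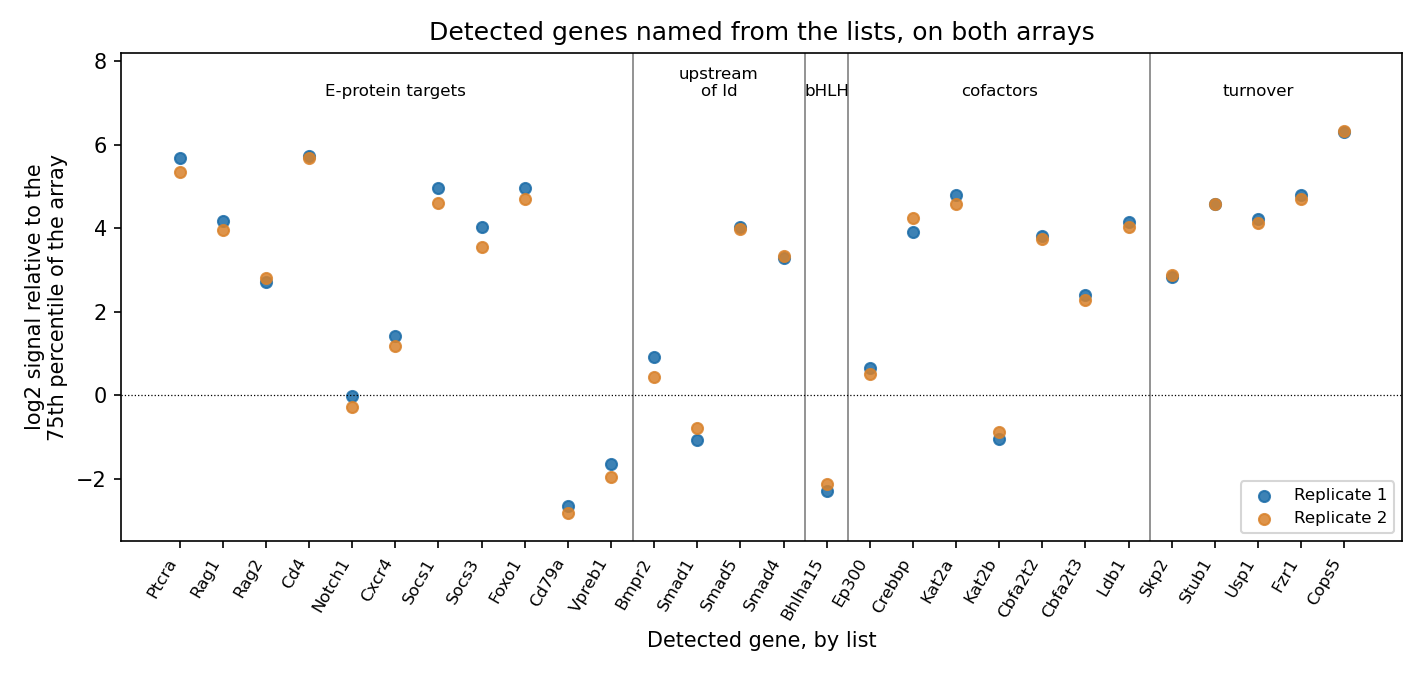
Log2 signal relative to the 75th percentile of the array for the detected genes named from the 5 lists, with replicate 1 and replicate 2 as separate points. Mean values run from -2.74 to 6.32 (Cops5). Values of different genes come from different probes and do not rank their transcripts.

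Defining T-cell genes were detected in 6 of 6 cases (Cd3e, Cd3d, Cd3g, Ptcra, Thy1 and Lck). Some E and Id genes are also known from other cells, so markers of those were read beside them. For natural killer cells 0 of 4 were detected, as for fibroblasts and epithelium, while 1 of 5 B-cell, 2 of 4 myeloid and 2 of 4 endothelial markers were. Of all named genes, 51.7% were detected. The B-cell gene Cd79a had 51.3 and 42.5 units and the myeloid gene Cd14 44.8 and 47.0 units. Both lay above the brightest negative control on replicate 1 and below it on replicate 2. The myeloid gene Csf1r lay above the brightest negative control of each array. Cd79b and Mpo were found on 1 array only. Of the plasmacytoid dendritic cell genes, read beside Tcf4, 3 of 4 were detected. Siglech, a surface receptor of those cells, had 35034 and 23769 units by 1 of its 3 probes. Bst2, an interferon-induced membrane protein, had 6307 and 6479 units, Irf8, a transcription factor, 1103 and 1559 units, and Klk1 was not well above background. The RNA came from a cultured T-cell line and not from a mixed tissue, so these marker genes do not show that such cells were present. How they relate to the Tcf4 signal was not tested.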

How the data were processed

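Per the file headers, the deposited intensity of each spot came from Agilent Feature Extraction 10.5.1.1, which removed a spatial background surface, took out a multiplicative trend and put surrogate values near background. The deposited intensities were not scaled between arrays. The authors also deposited a log2 table of these spots. Its scale and centring are not given in the sources used here. Against the scanner values its slope was 0.997 on replicate 1 and 1.01 on replicate 2, and its column medians were both 5.18.

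Spots that the software flagged for uneven pixels or as outliers of their replicates (182 and 186 spots, none of a member) were left out, after which 55680 probes had a spot on both arrays. No spot was saturated. Each probe's mean log2 signal was set against the 75th percentile of its array, taken across non-control probes (324 and 299 units). Each member probe has 1 spot. A probe with several spots was called when at least 0.5 of them were marked. Normexp used limma 3.58.1 with an offset of 50. The summary was tested on simulated data.

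Names came from RefSeq's genes (GRCm38.p6, names alone), by accession for 26756 probes, by symbol for 3824 and by an unambiguous older name for 639. The other 24462 stayed unnamed. Whether a position is in an exon or UTR was not analysed here. Members and lists were chosen with earlier results of these data known. The text names every member and list gene with its state, with values for up to the first 5 detected genes of a list, except 2 list genes that are counted but not reported here by name. A number of arrays as low as 2 limits the precision of every value.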

Additional observations from a re-analysis of the deposited data

How the results depend on the processing

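The 6 detected member genes remained 6 under 7 of the 8 alternatives and became 5 with all probes of each gene required, since 1 Tcf4 probe then failed. The 8 detected member probes became 9 with a positive and significant signal, with detection on 1 array, or without replicate 1, the added probe being Tcf4 at base 7402. The 29 detected genes of the 60 listed ranged from 26 to 40. They were 40 with a positive and significant signal, where 67.5% of all named genes were found. They were 26 above the highest negative control on both arrays, where 45.8% of all named genes were. With all probes of each gene required they were 26 too, where 44.6% of all named genes were found. Among the bHLH partners the count of 1 became 8 with a positive and significant signal and 0 when the signal had to exceed the highest negative control spot on both arrays. The median value of the 8 detected member probes was 2.39, and 2.33 to 2.39 with 1 replicate left out. It moved to -1.12 when scaled to the detected probes and to 6.38 when scaled to the array median, both by construction, and to 2.20 with normexp, where the cause was not tested. The median difference between the arrays was 0.08 for the members, and -0.15 with the array median, a scaling that moved the median of all detected probes to -0.23. With it single probes moved by over 1.5 times in either direction, Tcf4 at base 2683 to 0.02, against 0.25 as reported, Id3 to 0.06, against 0.29, Tcf3 at base 1898 to 0.08, against 0.30, and Tcf12 at base 1848 to 0.29, against 0.52, while those lower on replicate 2 moved further from 0, Id1 to -0.50, Id2 to -0.44, Tcf3 at base 2516 to -0.36 and Tcf12 at base 4396 to -0.32. Under each of the 7 alternatives for values, 4 member probes stayed higher on replicate 2 and 4 lower, and the probe pairs of Tcf3 and Tcf12 kept opposite signs. No paired analysis was possible because there is 1 group. Signal over background limits Id4 to an upper bound. The Tcf4 probe at base 7402 gave a low signal, positive and significant on both arrays but well above background on replicate 2 only.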
